A study of Mus musculus with 20 samples.

Results

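The 9 genes described here encode transcription factors of the nephron lineage and its neighbours: Pax2, Pax8, Lhx1, Hnf4a, Hnf4g, Sox4, Sox9, Emx1 and Gata3. They were taken by name, with earlier results of these data known, and all 9 were present among the 24411 genes of the count table. Their levels were compared in whole kidneys of 20 inbred C57BL/6 mice at P125, 1 library per mouse and 5 mice in each of 4 groups. Mutants carried Pkd2 fl/fl, Pax8rtTA and TetOCre, in which the Pax8 promoter places the doxycycline-dependent activator in proximal and distal tubules and collecting ducts. Controls were littermates that lacked Pax8rtTA or TetOCre. Both genotypes received doxycycline hyclate at 50 mg/kg on each day from P27 to P29. All 5 male and 5 female mutants therefore carried the Pax8rtTA transgene, and the labels do not say which controls did, so the transgene and the loss of Pkd2 cannot be told apart in comparisons of genotype. Mice are named by group and number: MC and FC are male and female controls, MM and FM male and female mutants.

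These factors act in an order during kidney development. Pax2 and Pax8 are paired-box paralogs that specify the renal lineage, and Lhx1 is a LIM homeodomain factor needed for the early nephron. Hnf4a directs proximal tubule maturation, and Hnf4g is its paralog. Sox4 and Sox9 are SOX factors. Sox9 acts in the branching ureteric bud and reappears in injured tubule cells. Emx1 is a homeodomain factor whose paralog Emx2 is needed in the ureteric bud. Gata3 is a zinc finger factor of the nephric duct that persists in the collecting duct. Pkd2 encodes polycystin-2, a cation channel of the primary cilium, and its loss from tubules gives cysts. Kidney weight as a percentage of body weight (KBW) serves as the measure of cystic disease.

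In the GENCODE M21 annotation of GRCm38, which is the mm10 build of the authors' alignment, Pax2 lies at chr19:44756045-44837871 on the plus strand and Pax8 at chr2:24420560-24475599 on the minus strand. Lhx1 lies at chr11:84518284-84525535 on the minus strand and Emx1 at chr6:85187438-85204462 on the plus strand. Hnf4a is at chr2:163506808-163572910 and Hnf4g at chr3:3508030-3658052, both on the plus strand. Sox4, which has a single exon block, is at chr13:28948919-28953713 on the minus strand, Sox9 at chr11:112782224-112787760 on the plus strand, and Gata3 at chr2:9857078-9890034 on the minus strand. Exons of 3 of the 9 overlap exons of a gene on the opposite strand, over 2616 bases in Sox4 (Gm26735), 367 in Pax8 (Gm13415) and 155 in Gata3 (Gm13256). The strand setting of the counting is not given in the sources used here, so reads of Sox4 and of Gm26735 cannot be told apart, nor can those of the other 2 overlaps. Gata3 also shares 77 exonic bases with 9230102O04Rik on its own strand, a gene at a mean of 2.24 CPM (read counts scaled to a common library total with TMM).

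Promoter sequence of RefSeq (GRCm38.p6) was matched for 7 of the 9 genes, with no entry for Sox9 or Hnf4g. The 250 bases before the RefSeq start are shown for Pax8 and Sox4, which rose in mutants, and for Lhx1, which fell. They are written 5′ to 3′ on the strand of the gene, and capitals mark matches on either strand to 8 short motifs: the GC box GGGCGG, the CCAAT box CCAAT, the TATA box TATAAA, the PAX core GCGTGAC, the HNF4 motif CAAAGTCCA, the SOX motif AACAAT, the GATA motif AGATAA and the homeodomain motif TAATTA.
Pax8 (chr2:24475600-24475849, minus strand): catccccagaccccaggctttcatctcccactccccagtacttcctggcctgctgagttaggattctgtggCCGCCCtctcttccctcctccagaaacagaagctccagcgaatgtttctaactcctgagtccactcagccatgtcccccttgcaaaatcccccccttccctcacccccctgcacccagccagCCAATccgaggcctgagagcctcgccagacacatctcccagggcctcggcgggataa
Sox4 (chr13:28953700-28953949, minus strand): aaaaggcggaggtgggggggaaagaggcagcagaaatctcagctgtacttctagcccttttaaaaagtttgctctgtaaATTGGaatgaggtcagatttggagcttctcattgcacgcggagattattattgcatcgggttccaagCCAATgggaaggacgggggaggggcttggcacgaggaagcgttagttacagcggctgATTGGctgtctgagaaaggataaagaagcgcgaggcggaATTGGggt
Lhx1 (chr11:84525535-84525784, minus strand): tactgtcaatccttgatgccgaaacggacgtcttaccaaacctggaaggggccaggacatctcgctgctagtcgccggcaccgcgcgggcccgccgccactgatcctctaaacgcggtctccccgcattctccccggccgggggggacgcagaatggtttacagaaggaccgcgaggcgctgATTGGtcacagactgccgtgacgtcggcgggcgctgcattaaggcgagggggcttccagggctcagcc
The Sox4 window held 4 CCAAT matches, at -171, -104, -47 and -8 from the start, all reverse except that at -104, and no other of the 8 motifs. The Pax8 window held a CCAAT match at -57 and a reverse GC box at -179, and the Lhx1 window a reverse CCAAT match at -68. Of 32851 mouse promoter windows of the same length, 33.8% held a CCAAT match and 32.7% a GC box. None of the 3 windows held the SOX motif, found in 9.42% of all windows, the GATA motif in 9.99%, the homeodomain motif in 4.84%, the TATA box in 12.4%, the PAX core in 1.78% or the HNF4 motif in 0.384%. A match is a description of letters and does not show that a factor binds there.

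Libraries held 11307741 to 19324073 counts in all. FM4 stood apart, with 14850 genes detected against 16776 to 17724 in the other 19 mice and 76 genes with exactly 1 count against 708 to 859, so each result is also given without it where that changed the call. Pkd2 was at 193 to 332 CPM in the 10 controls and 93.4 to 181 CPM in the 10 mutants, with no overlap. Markers of the kidney's segments were present in every group. In all mutants against all controls, 6 of 7 thick ascending limb and distal convoluted tubule markers, 5 of 9 collecting duct, 4 of 5 podocyte and 2 of 12 proximal tubule markers fell, 4 of 6 fibroblast and mural, 4 of 7 leukocyte, 4 of 4 injury and 4 of 4 dividing-cell markers rose, and 0 of 5 endothelial markers were called. The summed thick ascending limb and distal convoluted tubule markers were at 6721 to 7238 CPM in male controls and 4557 to 5337 CPM in male mutants, and at 9264 to 10370 CPM and 4899 to 6864 CPM in the female groups. The summed dividing-cell markers were at 9.16 to 21.2 CPM in controls and 28.9 to 115 CPM in mutants, and the summed injury markers at 10.1 to 23.0 CPM and 46.8 to 635 CPM. No marker had a mean of 0 in any group. The part of these shifts in the results below was not tested. In bulk kidney RNA, fewer cells of a type and less RNA per cell cannot be told apart.

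**Figure D1:**
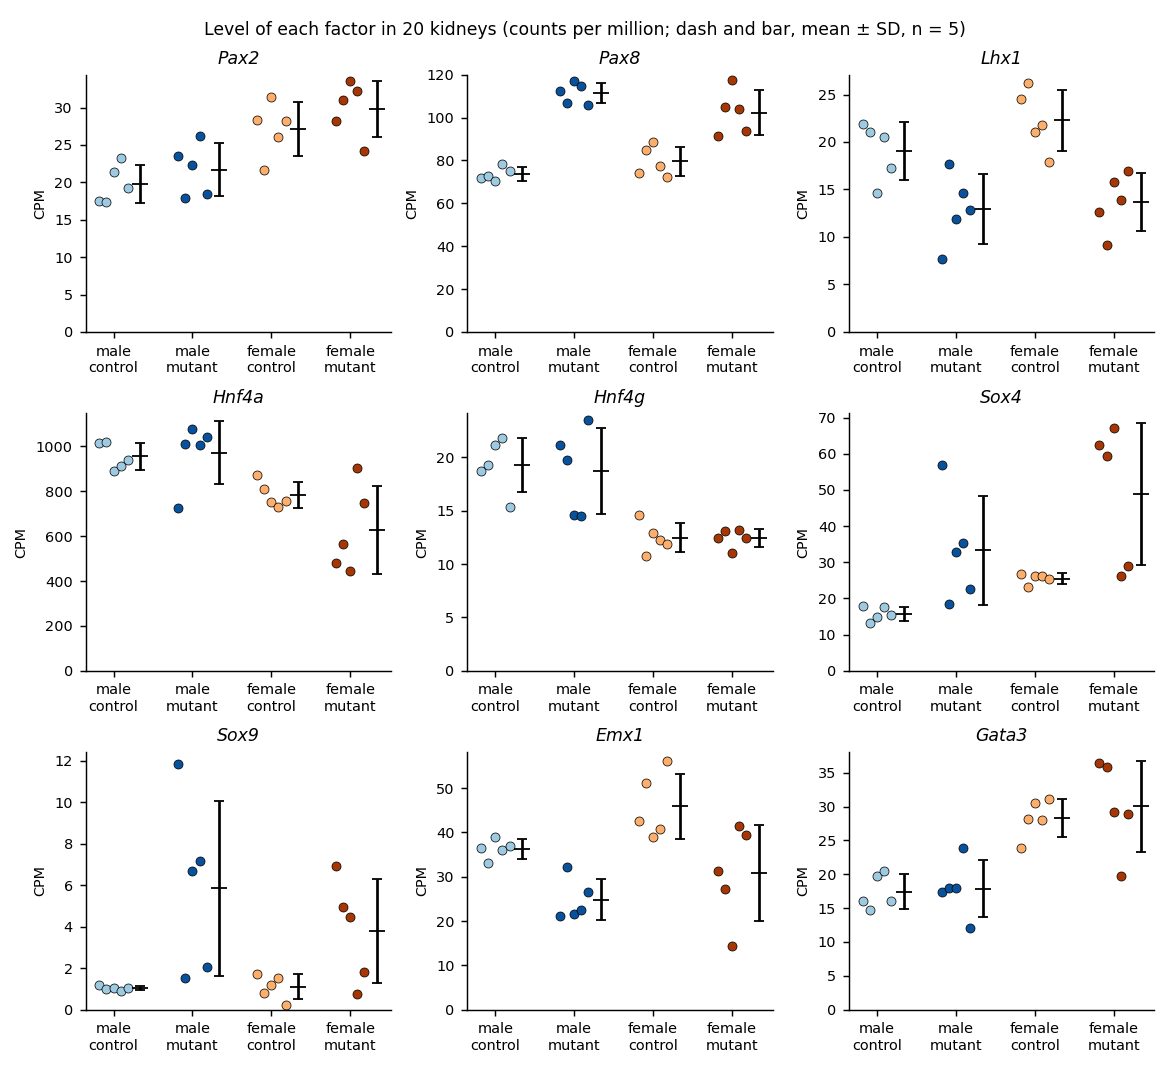
CPM of each factor by mouse in the 4 groups (5 points each), with the mean ± SD as dash and bar, all axes from 0. The 10 mutants all lie above the 10 controls for Pax8, while Sox4 and Sox9 spread widely among mutants and Lhx1 and Emx1 are lower.

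The question of the main comparison was which of these factors differ in level when Pkd2 has been lost, over all 20 mice with sex and litter as covariates. Of the 9 factors, 5 were called by edgeR's quasi-likelihood test at a Benjamini-Hochberg adjusted p under 0.01. Pax8, Sox4 and Sox9 rose, Lhx1 and Emx1 fell, and Pax2, Hnf4a, Hnf4g and Gata3 were not called. Over all 14191 genes tested the same rule called 15.9%, with 10.0% higher in mutants and 5.86% lower, and 3 of 9 and 2 of 9 are set against those shares. Because the 9 were chosen with earlier results known, these counts and those below describe the 9 and are not a test of them. The median log2 fold change of the 9 was 0.032 and that of all genes -0.012.

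**Figure D2:**
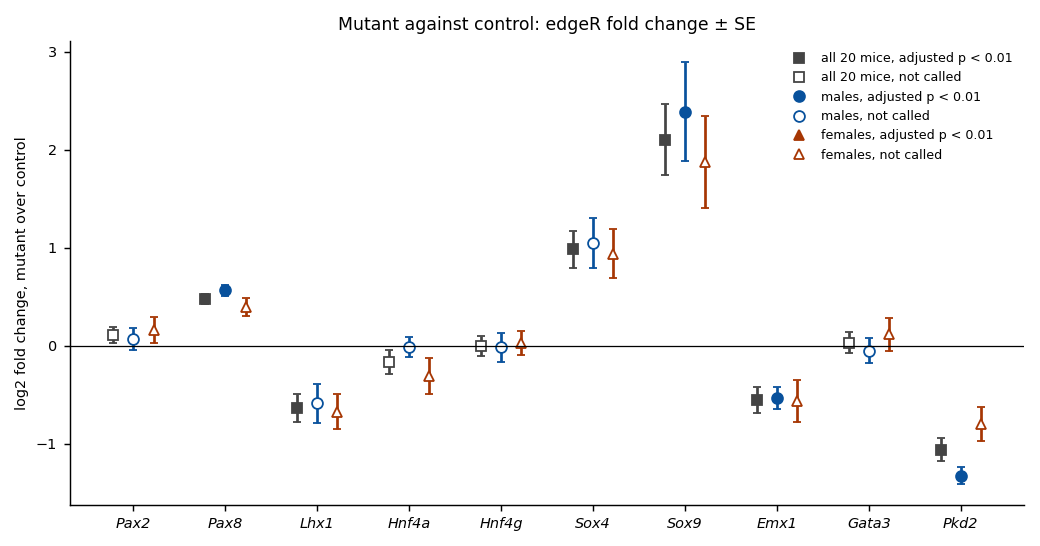
Log2 fold change of mutant over control (edgeR, bars are SE) for the 9 factors and Pkd2, in all 20 mice (squares), males (circles) and females (triangles), filled where the adjusted p was under 0.01. Sox9 shows the largest rise of the 9 at 2.10 over all mice, and no factor is filled in females.

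Pax8, the gene whose promoter drives the deletion, had the smallest SE of the 9 fold changes. It was at 72.0, 72.5, 70.3, 78.2 and 75.3 CPM in MC1 to MC5 and at 112, 107, 117, 115 and 106 CPM in MM1 to MM5. It was at 74.3, 85.0, 88.5, 77.6 and 72.3 CPM in FC1 to FC5 and at 91.5, 105, 118, 104 and 93.7 CPM in FM1 to FM5. Every mutant lay above every control, from the nearest values of 88.5 CPM in FC3 and 91.5 CPM in FM1, a separation over all 20 mice that was seen in 1.25% of the genes tested. Pax8 rose 1.39-fold (log2 fold change 0.47, SE 0.050, adjusted p = 5.5e-06 by edgeR), and it was called in 20 of 20 fits that each left out a mouse. Within litters the mutant means were higher in all 3 litters in males, by 0.49 to 0.61 in log2 CPM, and in all 3 in females, by 0.30 to 0.38.

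Pax2, the paralog of Pax8, was not called. It was at 17.5, 17.4, 21.4, 23.3 and 19.3 CPM in MC1 to MC5 and 23.6, 17.9, 22.4, 26.2 and 18.4 CPM in MM1 to MM5. In females it was at 28.4, 21.7, 31.5, 26.1 and 28.2 CPM in FC1 to FC5 and 28.2, 31.0, 33.6, 32.2 and 24.2 CPM in FM1 to FM5. The groups overlapped in each sex, and the fold change had an adjusted p of 0.35 (log2 0.11, SE 0.084, edgeR). Per kilobase of annotated exon, Pax8 exceeded Pax2 by a ratio of 3.36 ± 0.373 (SD, n = 5) in male controls and 4.66 ± 0.593 (SD, n = 5) in male mutants. In females the ratio was 2.66 ± 0.493 (SD, n = 5) in controls and 3.08 ± 0.235 (SD, n = 5) in mutants. The ratios of the male groups did not overlap, at 2.93 to 3.73 and 3.91 to 5.33, while those of the female groups did.

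Sox9 was close to absent from control kidneys and rose in mutants by the largest fold of the 9. Controls held 3 to 26 reads of it. It was at 1.17, 1.02, 1.05, 0.892 and 1.03 CPM in MC1 to MC5 and 11.8, 1.51, 6.68, 7.20 and 2.05 CPM in MM1 to MM5. It was at 1.72, 0.818, 1.18, 1.55 and 0.227 CPM in FC1 to FC5 and 6.93, 4.98, 4.49, 0.771 and 1.82 CPM in FM1 to FM5. Every male mutant exceeded every male control, but FM4, with 9 reads, lay within the female controls. The rise was 2.10 in log2 (SE 0.365, adjusted p = 0.00037, edgeR) and was called in 20 of 20 fits that each left out a mouse. Within litters the difference was positive in 3 of 3 in each sex, at 0.91 to 2.79 in males and 1.12 to 2.46 in females in log2 CPM.

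Sox4, which is expressed in many progenitor cells, rose 1.98-fold (log2 0.98, SE 0.188, adjusted p = 0.00083, edgeR), again in 20 of 20 fits with a mouse left out. It was at 17.9, 13.3, 14.9, 17.6 and 15.4 CPM in MC1 to MC5 and 57.0, 18.4, 32.9, 35.5 and 22.6 CPM in MM1 to MM5. It was at 26.8, 23.1, 26.2, 26.1 and 25.3 CPM in FC1 to FC5 and 62.3, 59.4, 67.1, 26.2 and 28.9 CPM in FM1 to FM5. Male groups did not overlap, with the closest values at 17.9 CPM in MC1 and 18.4 CPM in MM2. In females FM4 lay within the controls and FM5 just above them, while the other 3 mutants exceeded 59 CPM. Of the 9 factors, Sox4 held the largest antisense overlap, described above. Within litters the mutant mean was higher by 0.55 to 1.08 in males and 0.19 to 1.21 in females, in 3 of 3 litters each.

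Lhx1 fell to 0.644 of the control level (log2 fold change -0.63, SE 0.142, adjusted p = 0.0027, edgeR). It was at 21.9, 21.0, 14.6, 20.5 and 17.3 CPM in MC1 to MC5 and 7.71, 17.7, 11.9, 14.6 and 12.9 CPM in MM1 to MM5. It was at 24.5, 26.2, 21.0, 21.8 and 17.9 CPM in FC1 to FC5 and 12.6, 9.11, 15.8, 13.9 and 17.0 CPM in FM1 to FM5. The female groups did not overlap, and in males MM2 lay within the control range and MM4 just under its lowest value. The call held in 20 of 20 fits with a mouse left out. The within-litter difference was negative in 3 of 3 litters in each sex, although in females it ran from -0.95 in litter A to -0.080 in litter C, where 1 mutant was compared with 1 control.

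Emx1 fell to 0.683 of the control level (log2 -0.55, SE 0.133, adjusted p = 0.0048, edgeR), while its paralog Emx2 had a log2 fold change of 0.043 (SE 0.10, adjusted p = 0.80, edgeR). Emx1 was at 36.5, 33.0, 39.0, 35.9 and 36.9 CPM in MC1 to MC5 and 21.2, 32.3, 21.6, 22.6 and 26.5 CPM in MM1 to MM5. It was at 42.7, 51.1, 39.0, 40.8 and 56.0 CPM in FC1 to FC5 and 31.3, 27.2, 14.4, 41.5 and 39.5 CPM in FM1 to FM5. Male groups did not overlap, and FM4 and FM5 lay within the range of female controls. The adjusted p rose to 0.0163 without MC4, and the call held in 18 of 20 fits with a mouse left out. MC4 was the only male control of litter B, so without it MM3 and MM4 had no male control of their litter. Without FM4 the log2 fold change was -0.65 (SE 0.12, adjusted p = 0.00049, edgeR). All 6 within-litter differences were negative, at -0.70 to -0.46 in males and -0.77 to -0.45 in females.

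Hnf4a was the most abundant of the 9 per kilobase of exon. Its mean per kilobase was 198 ± 12.3 CPM (SD, n = 5) in male controls and 162 ± 11.8 CPM (SD, n = 5) in female controls, against 16.6 ± 0.987 CPM and 21.0 ± 3.34 CPM for Emx1, the next in both control groups. In males it was at 1014, 1021, 889, 914 and 939 CPM in MC1 to MC5 and 725, 1009, 1079, 1007 and 1040 CPM in MM1 to MM5. In females it was at 872, 808, 752, 730 and 757 CPM in FC1 to FC5 and 480, 564, 443, 906 and 750 CPM in FM1 to FM5. MM1 was the only male mutant under the male controls, and FM1, FM2 and FM3 lay under all female controls, whereas FM4 lay above them. Over all mice the log2 fold change was -0.16 (SE 0.12, adjusted p = 0.34, edgeR), and without FM4 it was -0.25 (SE 0.11, adjusted p = 0.091).

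Hnf4g and Gata3 had values that overlapped between genotypes in each sex. Hnf4g, the paralog of Hnf4a, was at 18.7, 19.3, 21.2, 21.8 and 15.4 CPM in MC1 to MC5 and 21.2, 19.7, 14.6, 14.5 and 23.5 CPM in MM1 to MM5. It ranged from 10.8 to 14.6 CPM in female controls and from 11.1 to 13.2 CPM in female mutants. Its log2 fold change over all mice was 0.00 (SE 0.10, adjusted p = 1.0, edgeR). Gata3 ranged from 14.7 to 20.5 CPM in male controls, 12.1 to 23.9 CPM in male mutants, 23.9 to 31.0 CPM in female controls and 19.8 to 36.4 CPM in female mutants, where the lowest value was FM4's. Its log2 fold change was 0.032 (SE 0.11, adjusted p = 0.86, edgeR). A p over the threshold does not show that these levels were the same in mutants and controls.

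Within each sex, the question was whether a genotype difference is met in males and females alone, with litter as covariate. In males, 3 of the 9 were called (Pax8, Sox9 and Emx1), where 8.46% of all genes were. Pax8 had a log2 fold change of 0.57 (SE 0.057, adjusted p = 0.00031, edgeR), called in 10 of 10 fits with a mouse left out. Sox9 had 2.39 (SE 0.51, adjusted p = 0.0079) and Emx1 -0.53 (SE 0.11, adjusted p = 0.0079), but these calls held in 3 of 10 and 1 of 10 such fits, with adjusted p up to 0.045 and 0.059 without MC4. Sox4 at 1.05 (SE 0.26, adjusted p = 0.015, edgeR) and Lhx1 at -0.59 (SE 0.20, adjusted p = 0.059) did not pass. Without MM2, which had the lowest KBW of the male mutants, the adjusted p of Sox4 was 0.0010 and that of Lhx1 0.0071. Without MM1, which had the highest KBW, the log2 fold changes in males were smaller, at 0.57 for Sox4 (SE 0.14, adjusted p = 0.014, edgeR), -0.39 for Lhx1 (SE 0.15, adjusted p = 0.10) and 1.44 for Sox9 (SE 0.38, adjusted p = 0.023). Sox4 in males was also called without a filter on low counts (adjusted p = 0.0045, edgeR) and without litter (adjusted p = 0.0087). The CPM ranges of Pax8, Sox4, Sox9 and Emx1 did not overlap between male genotypes, as in 15.3% of the genes tested in males.

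In the fit of the 10 females none of the 9 was called by edgeR, where 0.637% of all genes were. An unadjusted p under 0.05 was met by 5 of the 9 and by 2979 of 14439 genes. The log2 fold changes of edgeR were 0.40 for Pax8 (SE 0.090, adjusted p = 0.030), 1.87 for Sox9 (SE 0.47, adjusted p = 0.045), 0.94 for Sox4 (SE 0.25, adjusted p = 0.054), -0.67 for Lhx1 (SE 0.18, adjusted p = 0.057), -0.57 for Emx1 (SE 0.21, adjusted p = 0.16) and -0.30 for Hnf4a (SE 0.18, adjusted p = 0.39). DESeq2's Wald test called Pax8, Sox4 and Sox9 in females, and edgeR with all 20 mice in 1 fit called Pax8 (0.37, SE 0.063, adjusted p = 0.0018). Ranges did not overlap for Pax8 and Lhx1, as in 7.14% of the genes tested in females. Without FM4, Sox4 was called at 1.10 (SE 0.18, adjusted p = 0.0043, edgeR) and Sox9 at 2.15 (SE 0.25, adjusted p = 0.0011), and Pkd2 had an adjusted p of 0.0091 against 0.028 with FM4. The difference between the sexes in the genotype effect was tested directly. None of the 9 was called, as for 0% of all genes at that threshold. In that fit 618 of 14820 genes had an unadjusted p under 0.05, and DESeq2's Wald test called 18 genes, none of the 9 among them. The term for Pax8 was 0.20 (SE 0.090, unadjusted p = 0.038, adjusted p = 1.0, edgeR), a larger rise in males.

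Among controls the sexes differed in 3 of these factors. Between control males and females, Hnf4g was 1.55-fold higher in males (log2 0.63, SE 0.11, adjusted p = 0.0012, edgeR), Sox4 was lower in males (-0.64, SE 0.11, adjusted p = 0.00087) and Gata3 was lower in males (-0.57, SE 0.11, adjusted p = 0.0024). Thus 3 of 9 were called, where 17.8% of all genes were. Every male control had more Hnf4g, less Sox4 and less Gata3 than every female control. The share of all genes whose ranges separate between the sexes was not counted, in controls or in mutants. These separations are therefore not read as particular to these factors. Among these controls, 6 of 7 thick ascending limb and distal convoluted tubule markers and 5 of 5 podocyte markers were called lower in males. So were 5 of 5 endothelial and 3 of 9 collecting duct markers, while 5 of 12 proximal tubule markers were called higher. None of these lists held a call the other way. The part of these shifts in the differences of Hnf4g, Sox4 and Gata3 was not tested. Without FC1 the adjusted p of Sox4 was 0.016, without MC4 that of Hnf4g 0.032, and Gata3 was called in 6 of 10 fits with a mouse left out. Hnf4a (0.28, SE 0.075, adjusted p = 0.016), Pax2 (-0.39, SE 0.13, adjusted p = 0.038) and Emx1 (-0.31, SE 0.10, adjusted p = 0.043) did not pass. Hnf4a was called by DESeq2's Wald test (adjusted p = 0.00098) and by edgeR without litter (adjusted p = 0.0038). Within litters, male controls were lower in Sox4, Gata3, Pax2, Emx1 and Lhx1 and higher in Hnf4g and Hnf4a in 3 of 3 litters, although litters A, B and C held 3, 1 and 1 male and 1, 3 and 1 female controls. Of these, Lhx1 had a log2 difference of only -0.17 between the control sexes (SE 0.13, adjusted p = 0.36, edgeR).

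In the fit of the 10 mutants none of the 9 was called by edgeR between males and females, where 5.42% of all genes were. An unadjusted p under 0.05 was met by 4 of the 9 and by 4399 of 14416 genes. Hnf4a had a log2 difference of 0.70 (SE 0.20, adjusted p = 0.039, edgeR), Hnf4g 0.52 (SE 0.15, adjusted p = 0.039), Gata3 -0.78 (SE 0.19, adjusted p = 0.020), Pax2 -0.41 (SE 0.11, adjusted p = 0.030) and Sox4 -0.57 (SE 0.31, adjusted p = 0.24). DESeq2's Wald test and edgeR with all 20 mice in 1 fit each called Hnf4a, Hnf4g, Gata3 and Pax2. Without FM4, Hnf4a was called at 0.87 (SE 0.15, adjusted p = 0.0034, edgeR) and Gata3 at -0.89 (SE 0.14, adjusted p = 0.0021). Every male mutant had more Hnf4g than every female mutant, and less Gata3 than each female mutant other than FM4.

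Ordered by group means, Pax8 was highest in male mutants at 111 ± 4.88 CPM (SD, n = 5), followed by female mutants at 102 ± 10.5, female controls at 79.5 ± 6.95 and male controls at 73.7 ± 3.13. Of these neighbours only the mutant and control females did not overlap. Sox4 ran from female mutants at 48.8 ± 19.6 CPM (SD, n = 5) through male mutants at 33.3 ± 15.0 and female controls at 25.5 ± 1.44 to male controls at 15.8 ± 1.94, and only the last step had no overlap. Hnf4a ran from male mutants at 972 ± 141 CPM (SD, n = 5) and male controls at 956 ± 59.4 to female controls at 784 ± 57.1 and female mutants at 629 ± 195, with no overlap between male and female controls. For Emx1 the order was female controls, male controls, female mutants and male mutants. Only its control groups did not overlap, and only just, at 39.01 CPM in FC3 against 38.99 CPM in MC3. As above, the share of all genes that separate between the sexes was not counted, so these separations are not read as particular to these factors. For Pax2, Lhx1, Hnf4g, Sox9 and Gata3 each pair of neighbours in the order overlapped.

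The last question was whether these levels followed disease severity among the 10 mutants. KBW was 1.22% to 2.15% in male mutants and 0.836% to 1.46% in female mutants, against 0.555% to 0.896% in all controls. In edgeR fits of level on KBW with a term for sex, none of the 9 slopes was called, as for 0% of the 14416 genes tested, and 5 of the 9 had an unadjusted p under 0.05. In that fit 3212 genes had an unadjusted p under 0.05 and DESeq2's Wald test called 577, Sox4, Sox9 and Hnf4a among them. The steepest slope of the 9 was that of Sox9, at 3.19 in log2 per percentage point of KBW (SE 0.76, adjusted p = 0.048, edgeR), followed by Sox4 at 1.87 (SE 0.31, adjusted p = 0.027). The slopes of Emx1 at -1.06 (SE 0.32, adjusted p = 0.087, edgeR), Hnf4a at -0.96 (SE 0.26, adjusted p = 0.065) and Lhx1 at -0.86 (SE 0.35, adjusted p = 0.17) were negative. Among the other 4 the adjusted p was 0.61 or more.

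**Figure D3:**
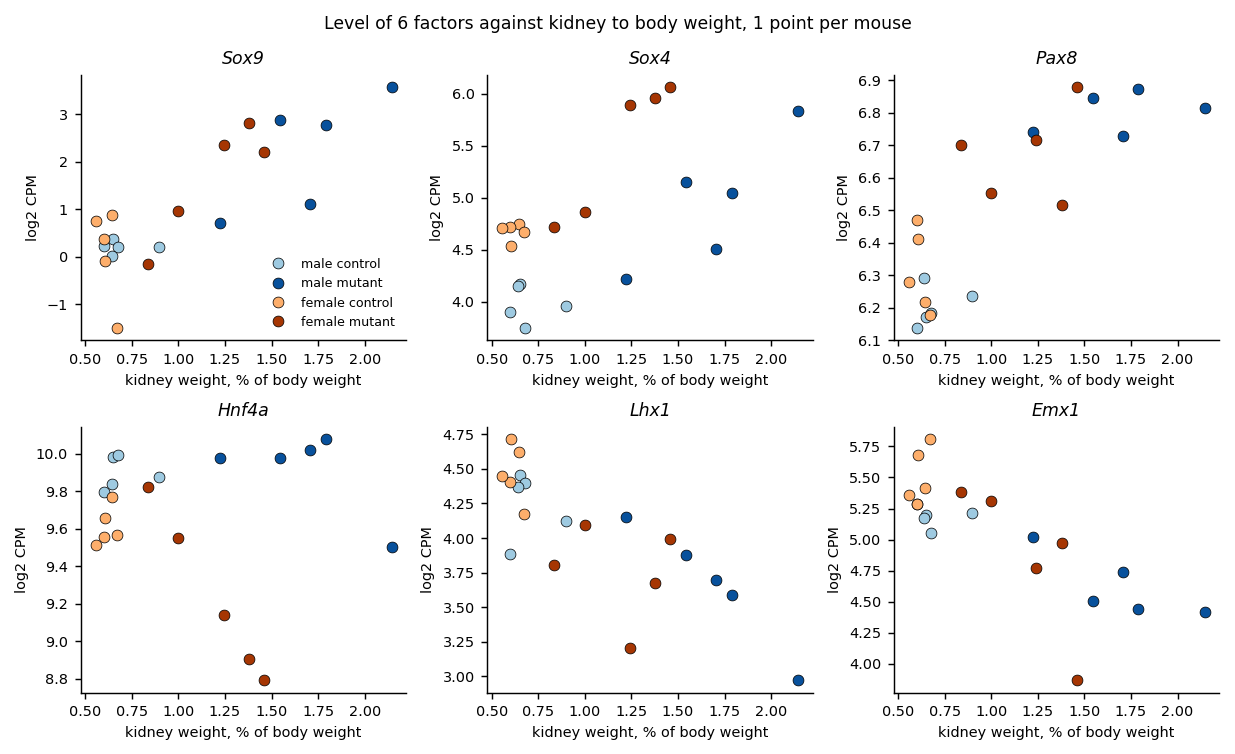
Log2 CPM of 6 factors against kidney weight as a percentage of body weight, 1 point per mouse, coloured by group. Among the 5 female mutants Sox4 rises and Hnf4a falls in the order of KBW, while among males only MM1, the point at 2.15%, has low Hnf4a.

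Across the 10 mutants, Pearson's r of level with KBW was 0.76 for Sox9 (Spearman's rho 0.76), with p = 0.010 in a permutation test and 0.19 after Benjamini-Hochberg adjustment over 14416 genes. For rho the permutation p was 0.015 (adjusted 0.28). With the 2 mice farthest from the median KBW left out (MM1 and FM4), r of Sox9 was 0.45 (exact permutation p = 0.26, n = 8), so over this narrower range of KBW the relation was not detected. With 1 mutant left out r of Sox9 was 0.64 (without FM4) to 0.87 (without MM5). For Emx1 r was -0.69 (permutation p = 0.029, adjusted 0.27) and rho -0.85 (permutation p = 0.0030, adjusted 0.21), and without MM1 and FM4 r was -0.60 (exact permutation p = 0.11, n = 8), and leaving out 1 mutant gave -0.91 (without FM3) to -0.57 (without FM4). The remaining r values were -0.58 for Lhx1, 0.54 for Pax8, 0.54 for Hnf4g, -0.42 for Gata3, -0.35 for Pax2, 0.30 for Sox4 and 0.10 for Hnf4a. The permutation p of these r was 0.0755 or more (adjusted 0.39 or more), and rho was -0.56, 0.61, 0.48, -0.49, -0.35, 0.26 and 0.20 in the same order. An absolute r above 0.5 was held by 29.3% of all genes tested, and by 5 of the 9. Without MM1 alone r was -0.25 for Lhx1 and 0.36 for Hnf4g, under 0.5 in size.

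KBW was larger on average in male than in female mutants, and several factors differed in level by sex, so the relation was also measured within sex. After levels and KBW were centred within sex, r was 0.89 for Sox4 (permutation within sex, p = 0.0032, adjusted 0.11) and -0.79 for Hnf4a (p = 0.0060, adjusted 0.11 in the same permutation test). It was 0.83 for Sox9, -0.71 for Emx1 and -0.68 for Lhx1, and an absolute r above 0.5 was then held by 40.3% of all genes. For Pax8 and Hnf4g this r was 0.28 and -0.0066, no longer above 0.5 in size. For Pax2 and Gata3, whose r was negative before centring, it was 0.38 and 0.21. None passed an adjusted p of 0.01. With 5 mutants of each sex and 3 litters holding 3, 5 and 2 mutants, no r is given within 1 sex or litter.

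In females, the mutants had Hnf4a in the reverse order of their KBW. FM4, at 0.836%, had 906 CPM, FM5, at 1.00%, had 750, FM2, at 1.24%, had 564, FM1, at 1.38%, had 480, and FM3, at 1.46%, had 443. Sox4 followed the same order upward, at 26.2, 28.9, 59.4, 62.3 and 67.1 CPM. In male mutants, ordered by KBW as MM2 (1.22%), MM4 (1.54%), MM5 (1.71%), MM3 (1.79%) and MM1 (2.15%), Hnf4a was at 1009, 1007, 1040, 1079 and 725 CPM, and only MM1 stood below the rest. Sox4 in that order was at 18.4, 35.5, 22.6, 32.9 and 57.0 CPM, and Sox9 at 1.51, 7.20, 2.05, 6.68 and 11.8 CPM. In these males the lowest KBW went with the lowest level of both SOX factors, and the highest with the highest. In male mutants Lhx1 was 17.7, 14.6, 12.9, 11.9 and 7.71 CPM in the same order of KBW, without exception downward. In female mutants Lhx1 did not follow KBW, at 13.87, 16.97, 9.11, 12.65 and 15.78 CPM in FM4, FM5, FM2, FM1 and FM3. Sox9 in those females was at 0.771, 1.82, 4.98, 6.93 and 4.49 CPM. Differences between libraries moved with part of this order, since FM4 had the lowest KBW among mutants and also the fewest counts and detected genes. For comparison, MC4 had 12726655 counts and 16776 genes detected, against 11307741 and 14850 in FM4. The summed injury, dividing-cell and fibroblast markers were lowest in FM4 and highest in FM3 among female mutants, and the summed proximal tubule markers were lowest in FM3, at 10360 CPM against up to 23950 CPM in FM5. That sum is weighted to its most abundant genes. All 12 proximal tubule markers had negative slopes on KBW, none of them called. Their median was -0.83, beside the -0.96 of Hnf4a and a median of -0.057 for all genes. The part of these markers in the orders above was not tested.

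The wider set of kidney transcription factors was read from lists of general knowledge, made with earlier results of these data known. Of 7 distal nephron factors, 4 fell and none rose over all 20 mice: Tfap2b (log2 fold change -0.54, SE 0.08, adjusted p = 8.5e-05, edgeR), Hoxd8 (-0.52, SE 0.08, adjusted p = 0.00011), Mecom (-0.48, SE 0.06, adjusted p = 1.9e-05) and Esrrb (-0.55, SE 0.11, adjusted p = 0.0011). Of 10 early nephron and segment patterning factors, 2 fell, the Iroquois factor Irx1 (-0.53, SE 0.11, adjusted p = 0.0017, edgeR) and Sim1 (-0.43, SE 0.10, adjusted p = 0.0029). The medians were -0.48 and -0.25, against -0.012 for all genes. Beside the counts of these short lists, here and below, 5.86% of all genes tested were called lower in mutants and 10.0% higher.

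Of 5 proximal tubule factors none was called, with a median of -0.063, and none of the 5 nephron progenitor factors with enough counts was called, with a median of -0.023. The other 5 progenitor factors, Six2 among them, were too low to test. Of 9 ureteric bud and collecting duct factors, the epithelial factors Elf3 (log2 0.93, SE 0.18, adjusted p = 0.00073, edgeR) and Klf5 (1.13, SE 0.28, adjusted p = 0.0056) rose and Tfcp2l1 (-0.36, SE 0.09, adjusted p = 0.0064), a collecting duct factor, fell, while Gata2, a relative of Gata3, had -0.30 (SE 0.09, adjusted p = 0.018). The podocyte factor Wt1 fell (-0.49, SE 0.08, adjusted p = 0.00032, edgeR), alone among the 5 tested of that list.

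Injury and repair factors had the largest median of these lists. Of 7, 6 rose and none fell, with a median of 1.61: the stress factor Atf3 (log2 2.39, SE 0.25, adjusted p = 5.0e-06, edgeR), Runx1 (2.17, SE 0.33, adjusted p = 0.00012), Sox11 (2.01, SE 0.30, adjusted p = 0.0001), Foxm1 (1.61, SE 0.20, adjusted p = 1.7e-05), which drives mitotic genes, Klf6 (1.00, SE 0.12, adjusted p = 2.0e-05) and Stat3 (0.54, SE 0.10, adjusted p = 0.00064). Among 24 close relatives of the 9 factors only 9 had enough counts to test, and 2 rose, Sox11 and Sox8, a paralog of Sox9 (2.56, SE 0.45, adjusted p = 0.00042, edgeR). Sox8 was at means of 0.373 and 0.690 CPM in male and female controls and 1.74 and 4.64 CPM in mutants. Sox12, a paralog of Sox4, had -0.19 (SE 0.08, adjusted p = 0.071). No paralog of Pax8 other than Pax2 was at a mean of 1 CPM in any group.

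**Figure D4:**
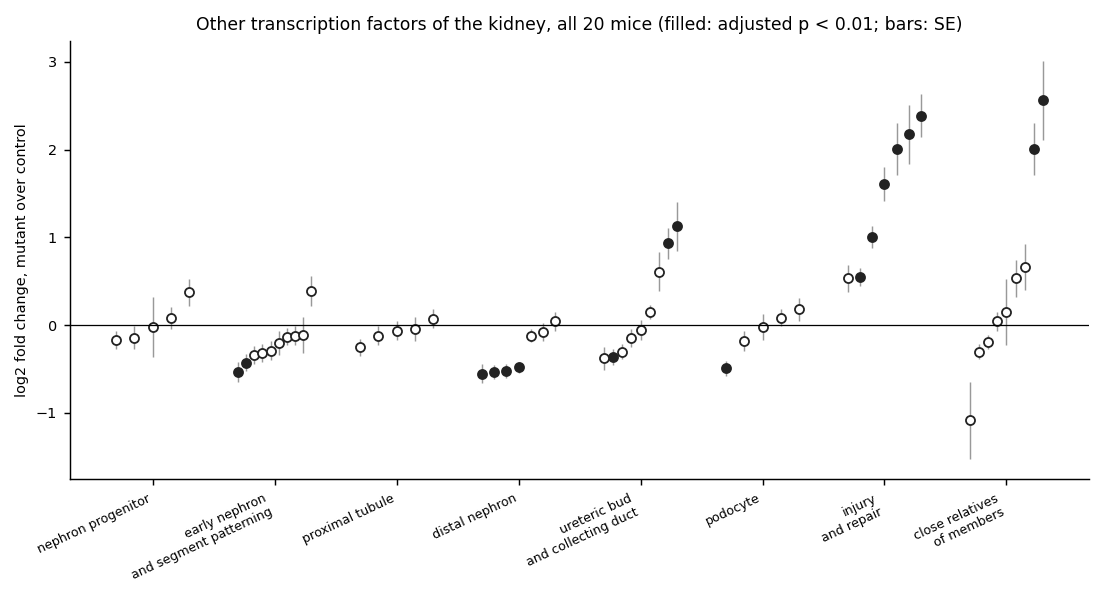
Log2 fold change of mutant over control for the tested genes of each list of other kidney transcription factors, all 20 mice, filled where the adjusted p was under 0.01, with SE bars. The injury and repair factors lie above 0 and most distal nephron factors near -0.5. Proximal tubule and progenitor factors, none of them filled, run from -0.25 to 0.38, with medians near 0.

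For each factor, the genes most like it in level over the 20 mice were found by Pearson's r of log2 CPM among 13781 genes at a mean of at least 1 CPM. These values describe mice that share genotype, sex and litter. Pax8 was most like Cenpf (r = 0.96), Pcdh7 (0.96) and Mki67 (0.95), and Cenpf and Mki67 are genes of dividing cells. Genes most like Sox9 included Eif1a (0.91) and Stil (0.91), which acts in centriole assembly. Sox4 was most like Cdh3 (0.98), Spp1 (0.98), which encodes osteopontin, and Cd14 (0.97). Lhx1 was most like Slc8a1 (0.91), a sodium-calcium exchanger, Abca13 (0.91) and Slc12a3 (0.91), the thiazide-sensitive cotransporter of the distal convoluted tubule.

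Emx1 was most like Fggy (0.96), Atp6v1c2 (0.96), a subunit of the proton pump, and Baiap2l2 (0.94). Hnf4a was most like Glyctk (0.95), Eps8 (0.94) and C2cd2l (0.94), Hnf4g like Fut8 (0.90), Mpp1 (0.89) and AA536875 (0.89), Pax2 like S1pr3 (0.94), Igf1 (0.93) and Fam174b (0.92), and Gata3 like Epn3 (0.93), Cers4 (0.91) and Nsg1 (0.91). Among the 9 themselves, after centring within the 4 groups, the highest r was between Sox4 and Sox9 (0.83) and the lowest between Sox4 and Hnf4a (-0.81), each over 20 mice. That of Pax8 with Pax2 was 0.44, and that of Hnf4a with Hnf4g 0.014.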

How the data were processed

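RNA was measured in 1 library from each of 20 mouse kidneys. The authors trimmed reads with fastp 0.23.2, aligned them to mm10 with STAR 2.7.10b and deposited raw read counts per gene, in 1 column a mouse. The counting tool, annotation and strand setting are not given in the sources used here. The authors computed KBW from 1 kidney a mouse; here it was computed from the kidney and body weights in the labels. Of 24411 genes listed, 4576 had no counts.

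The 9 genes and all lists were chosen with earlier results of these data known. Counts were fitted over all genes with edgeR 4.0.16 in R 4.3.3 (quasi-likelihood test, TMM, filterByExpr), with Benjamini-Hochberg adjustment and calls at an adjusted p under 0.01. As in the study's design, litter was a covariate within a sex or genotype, and sex and litter were joined over all 20 mice. The study itself tested with DESeq2, at the same threshold. The fit on KBW had a term for sex. CPM used TMM, log2 CPM a prior count of 2, and r 100000 resamples, two-sided. The fits were also run on simulated data, where the fit on KBW recovered few of the changes put in. An absence of calls on KBW is therefore not read as an absence of a relation. Each mouse is a replicate, and totals of 11307741 to 19324073 counts limit precision for Sox9. Alternatives were DESeq2 1.42.0 (size factors and Wald test), other filters on low counts, other covariates, all mice in 1 fit, a prior count of 0.5, and each mouse left out.

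Named genes were the 9, Pkd2, listed genes called over all mice, fixed paralogs, and the 3 genes most like each of the 9 in log2 CPM. Some genes that this rule names are not reported here.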

Additional observations from a re-analysis of the deposited data

Results flagged for a closer look

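Of 44 groups of 5 mice checked (the 9 factors, Pkd2 and KBW in each of the 4 groups), 2 held a mouse that stood far from the others of its group, where chance gives about 1 in 20. Hnf4a in male mutants was lowest in MM1, at 725 CPM against 1007 to 1079 CPM in the other 4, a gap of 0.822 of the group's range (Dixon's critical value 0.71). MM1 also had the largest KBW of all mice, at 2.15%. KBW in male controls was highest in MC5, at 0.896% against 0.599% to 0.678% in the other 4, a gap of 0.736 of the range. No cause of either was tested.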

How the results depend on the processing

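No paired analysis was possible because the replicate numbers only name mice in accession order; litter was a covariate instead. Over all 20 mice the calls of Pax8, Sox4, Sox9 and Lhx1 held in every alternative in which they were tested, and that of Emx1 in all but 2, both of which left out a mouse. Over all 20 mice DESeq2's Wald test called 2973 genes (2252 by edgeR). It called 2001 genes in males (1185 by edgeR), 928 in females (92), 1959 between mutant sexes (782), 18 for the difference between sexes (0) and 577 with KBW (0). All 20 mice in 1 fit gave 690 in males, 672 in females and 2353 between mutant sexes, and there Emx1 in males (adjusted p = 0.095, edgeR) and Sox4 between control sexes (adjusted p = 0.069) were no longer called, while Pax8 in females and Pax2, Hnf4a, Hnf4g and Gata3 between mutant sexes were called (adjusted p = 0.0018 to 0.0098). Without a filter on low counts 230 genes were called in females and 2 for the difference between sexes, which gave 1 with at least 10 counts in every mouse. Without litter 172 were called in females, and with sex and litter 10 followed KBW.

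With a mouse left out, calls ran from 187 (without MC4) to 1863 (without MM2) in males, 3 (without FC2) to 866 (without FM4) in females, 1223 (without MC4) to 2659 (without MC3) between control sexes, 246 (without FM1) to 1330 (without FM4) between mutant sexes, 0 to 3 for the difference between sexes and 0 to 76 (without MM5) with KBW. Some of these mice were the only member of their group in a litter, as MC4 was in litter B and FM1 in litter A. Without such a mouse its litter no longer entered that contrast, so the fit lost more than 1 mouse. Values near 0 changed sign. Hnf4g over all mice was -0.0040 with DESeq2 size factors, -0.00321 by DESeq2, -0.00713 with no filter, -0.000465 with at least 10 counts, -0.016 without litter and -0.079 to 0.096 with a mouse left out. Gata3 ran from -0.038 to 0.089. The slope of Hnf4a on KBW was 0.12 without a sex term, its r 0.10 (-0.019 to 0.24 with a mouse left out) and its rho 0.20 (0.0 to 0.40). The causes were not tested.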
